A study of Mus musculus with 5 samples.

Results

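The serpins are a large family of proteins, most of which trap and inactivate proteases. Here a serpin gene was one whose symbol begins with Serpin, and probe sets annotated to several genes were left out. This gave 39 probe sets for 30 genes, among 12393 named genes in all, and each gene was represented by its probe set with the highest mean signal. The letter after Serpin gives the clade, and the members were 8 genes of clade A, 14 of clade B, 2 each of clades F and I, and 1 each of clades C, D, G and H. Clade E, with the plasminogen activator inhibitor of endothelium, was not analysed here.

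A typical serpin offers an exposed loop to its target protease, which cuts the loop and is then held and distorted in a covalent complex. Clade A and clades C, D, F and G are largely secreted, many of them from the liver, and control coagulation, fibrinolysis, complement and tissue proteases or carry hormones. Clade B serpins mostly stay inside cells and protect epithelia and leukocytes from their own granule or lysosomal proteases. A few members inhibit no protease, such as the collagen chaperone of clade H.

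The study mixed 2 pools of total RNA from C57BL/6 mice, one from whole animals at day 1 of life and one from the colon of adults of 8 weeks, each pooled from multiple animals. The 5 mixes held 0%, 25%, 50%, 75% or 100% colon RNA, and 10 ng of each was amplified in 2 rounds with T7 and hybridised to 1 Affymetrix MOE430 array. Tissue and age differ together between the pools, and the mice carry no treatment or altered allele per the labels. Whole-animal RNA is a bulk sample, so fewer cells of a type and less RNA per cell cannot be told apart. No mix has a replicate array here, so precision is limited by there being 1 array a mix.

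A gene is said to have risen or fallen where the log2 signal changed with the share of colon RNA at an adjusted p under 0.05. The test was a straight line over the 5 arrays fitted with limma to all probe sets, with Benjamini-Hochberg adjustment over all of them. The slope is that line's rise from undiluted whole mouse to undiluted colon in log2 units, given with its moderated standard error (SE). Signals are log2 values in order of rising colon share, and they compare arrays within a probe set, not genes with each other. Each end of the series is a single pool, so the p-values do not cover variation among animals. Curvature along the series adds to the residuals of the line. A gene with a large difference between the undiluted arrays may therefore not pass.

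Array medians lay between 6.83 and 6.92 log2. The 15 probe sets of bacterial poly-A control RNAs lay between 2.91 and 5.23 over the 5 arrays. The labelled tissues matched their markers. All 10 measured genes of colon epithelium were at least 1 log2 higher in undiluted colon, and their summed intensity rose from 5458 to 68319. With linear intensity in place of log2, 5 of the 10 rose by limma. By the limma test on log2 signal 2 of the 10 passed, the gut transcription factors Cdx1, which rose by 3.58 log2, and Cdx2, which rose by 3.13. Of 10 epidermis genes 5 fell, and 8 were at least 1 log2 higher in whole mouse. The whole mouse array still carried a colon gene such as Lgals4, an intestinal lectin, at 11.40 log2, against 13.92 in colon (slope 2.10, adjusted p = 0.129).

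The printed promoters belong to the 3 plasma serpins whose signals differed most between the undiluted RNAs: the antitrypsin genes Serpina1b and Serpina1c and the antithrombin gene Serpinc1. The sequences are those of RefSeq for build GRCm38.p6, from 250 bases before the annotated start to 50 after it, read 5′ to 3′ on the gene's strand. These stretches lie at chr12:103738140-103738439 (minus strand), chr12:103904901-103905200 (minus strand) and chr1:160978333-160978632 (plus strand). Capitals mark GTTAAT, the half-site of the hepatocyte factor HNF1, searched on both strands.
Serpina1b: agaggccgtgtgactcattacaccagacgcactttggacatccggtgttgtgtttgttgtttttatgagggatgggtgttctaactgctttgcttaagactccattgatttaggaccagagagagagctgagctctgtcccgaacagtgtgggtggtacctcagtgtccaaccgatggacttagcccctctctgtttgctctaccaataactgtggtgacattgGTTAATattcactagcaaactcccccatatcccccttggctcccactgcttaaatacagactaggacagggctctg
Serpina1c: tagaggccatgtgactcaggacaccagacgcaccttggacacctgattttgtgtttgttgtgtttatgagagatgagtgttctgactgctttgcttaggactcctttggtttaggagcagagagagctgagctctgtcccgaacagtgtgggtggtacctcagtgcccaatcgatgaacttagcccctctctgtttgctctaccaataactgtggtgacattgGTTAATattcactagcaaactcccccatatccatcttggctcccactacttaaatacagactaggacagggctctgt
Serpinc1: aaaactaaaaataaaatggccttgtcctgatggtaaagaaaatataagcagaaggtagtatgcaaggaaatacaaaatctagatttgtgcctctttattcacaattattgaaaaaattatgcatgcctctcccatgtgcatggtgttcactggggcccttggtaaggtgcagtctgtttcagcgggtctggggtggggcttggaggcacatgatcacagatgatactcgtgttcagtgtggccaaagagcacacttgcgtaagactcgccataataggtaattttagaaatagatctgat

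The promoters of Serpina1b and Serpina1c were near copies, with 276 of 300 bases (92.0%) identical in a global alignment. Each held GTTAAT once, its first base at −26 in Serpina1b and −27 in Serpina1c relative to the start, and the Serpinc1 window did not hold these letters. Promoters were at hand for 26 of the 30 genes, 29 windows in all. GTTAAT was in 4 of the 29 windows, those of Serpina1b, Serpina1c, Serpinb8 and Serpini2, and in 7.1% of all 32841 promoters of this length. Among the genes that fell it was in 2 of 13, and among those that did not pass in 2 of 12. The letters TATAAA, the core of the TATA box, were in 6 of the 29 windows and in 13.6% of all promoters, on either strand and at any position. The 6 windows belonged to 5 serpin genes (Serpina3a, Serpinb2, Serpinb6c, Serpinb7 and Serpini2).

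Of the 30 serpin genes, 14 (46.7%) fell with rising colon share, 2 rose and 14 did not pass. Over all 12393 genes the same calls took in 14.5% as falls and 9.8% as rises. These shares are the background for each count of falls and rises in a clade or list. At an unadjusted p under 0.05 the slope was negative in 16 serpins and positive in 2, against 21.5% and 19.8% of all genes. The median slope of the serpins was −1.11 log2, against −0.01 over all genes. Between the undiluted arrays, 14 serpins were at least 1 log2 higher in whole mouse and 2 in colon, against 10.4% and 9.26% of all genes. In 11 serpins the 5 signals fell in strict order, which 12.1% of all genes did, and in 2 they rose in strict order, against 8.66%.

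The 14 falls came from 7 of the 8 clades, and both rises from clade B. Omitting undiluted whole mouse left 9 falls, omitting the 25% mixture 10, omitting the 50% or the 75% mixture 8, and omitting undiluted colon 11. Just 1 rise was left when whole mouse or the 25% mixture was omitted (Serpinb6a) and 0 when any other array was, where both genes still had an unadjusted limma p under 0.05. Each such fit had 2 residual degrees of freedom in place of 3. With each array centred on its median, 15 serpins fell and 2 rose, while the share of rises among all called genes went from 40.3% to 53.2%.

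**Figure D1:**
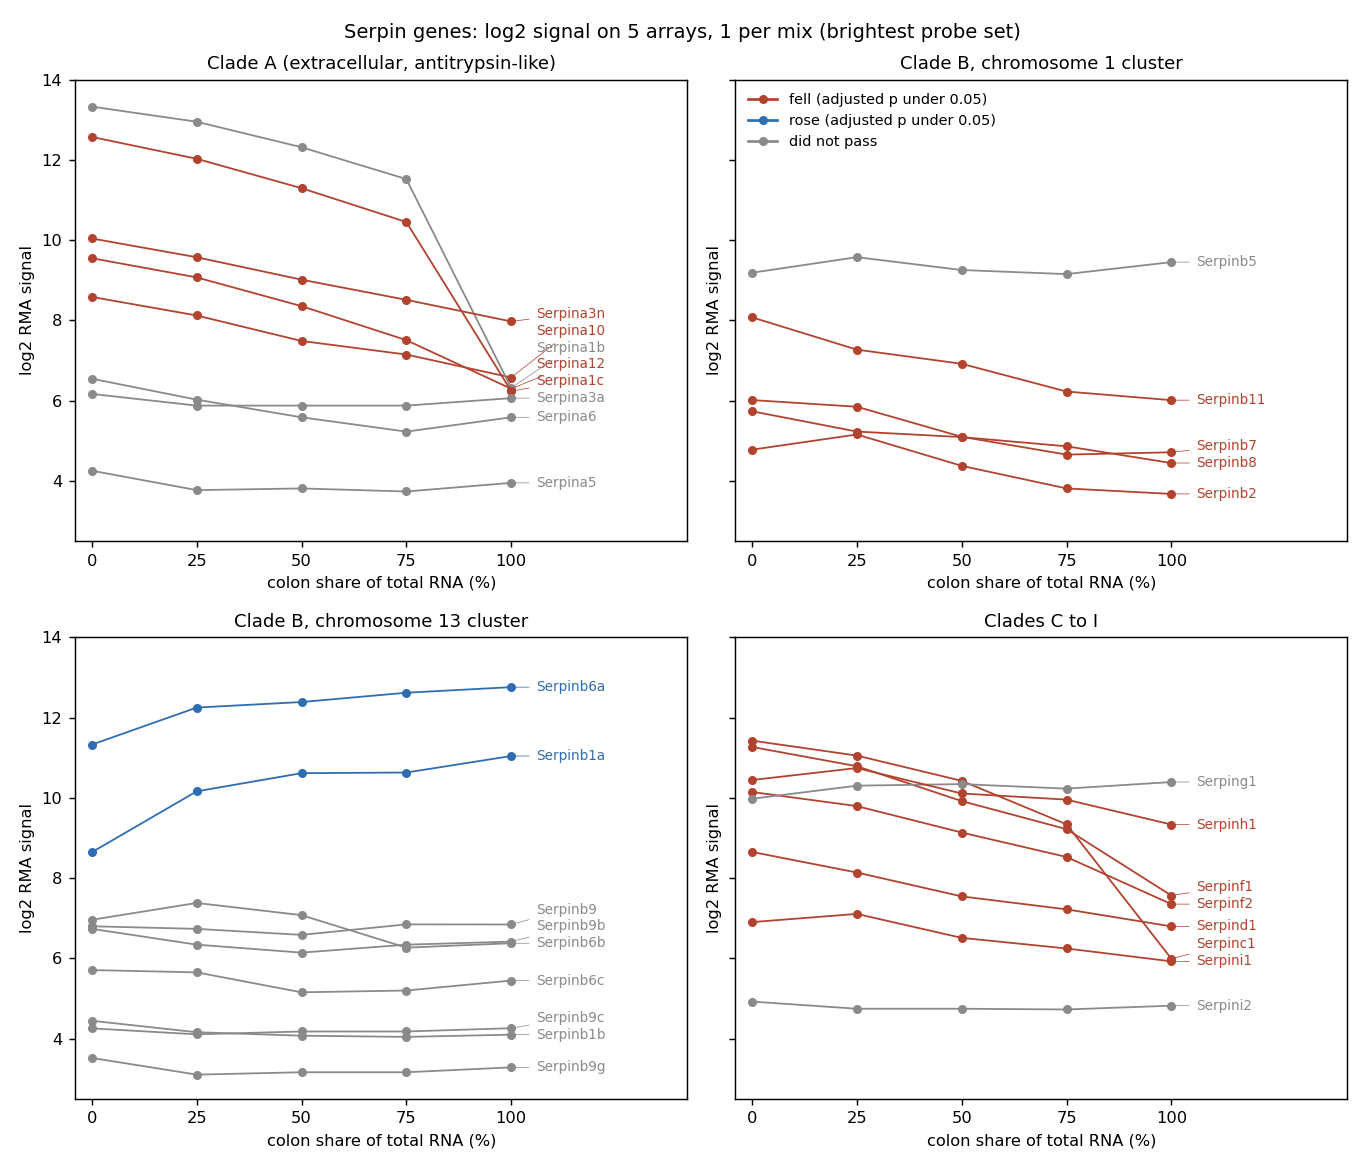
Log2 signal (vertical axis) against the colon share of total RNA in percent (horizontal axis) for the 30 serpin genes, 1 point per array, coloured by the outcome of the test. Most coloured lines run down toward colon, 4 of the 5 lines of the chromosome 1 cluster among them, and the 2 blue lines that rise, Serpinb6a and Serpinb1a, belong to the chromosome 13 cluster of clade B.

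Clade A holds the antitrypsins and their relatives, and it gave the steepest slope of the family. Of its 8 genes, 4 fell and none rose by limma. At an unadjusted p under 0.05 the slope was negative in 6 genes and positive in none, where 21.5% and 19.8% of all genes were. The median slope was −2.04 log2.

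Serpina1b and Serpina1c encode alpha-1-antitrypsins, the chief plasma inhibitors of neutrophil elastase. Serpina1b had signals of 13.33, 12.95, 12.32, 11.52 and 6.32. It was thus high on every array that held newborn RNA and low on the colon array alone. The undiluted arrays differed 129-fold, and the slope of −6.18 log2 (SE 1.70) had an adjusted p of 0.0641 and did not pass. Its second probe set gave a slope of −5.73 and an adjusted p of 0.0697. Serpina1c had 12.57, 12.03, 11.30, 10.45 and 6.24 and fell by 5.70 log2 (SE 1.29, adjusted p = 0.0418). Its shape was the same, with a drop of 4.21 log2 between the 75% mixture and undiluted colon after values that had dropped by 2.12 over the first 75% of the series.

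A straight line on the log2 scale describes such a curve poorly, and the test depended on the scale for these genes. On linear intensity Serpina1b passed with an adjusted limma p of 0.00485, over a range from 0.00485 to 0.15 across 10 alternatives, of which it passed 5. Centring the arrays (0.0419), the filter on signal (0.0435) and averaging its probe sets (0.0475) also brought it past the threshold. Serpina1c did not pass with eBayes trend and robust settings (0.0698), nor with the whole mouse array omitted (0.0985), nor lacking the 25% (0.103), 50% (0.0913) or 75% mixture (0.0649). With undiluted colon omitted the slopes were −2.42 for Serpina1b (adjusted p = 0.0361) and −2.84 for Serpina1c (0.0321), so their size rested on that array. The near-identical genes of this cluster share sequence, and the probe sets of Serpina1b carry the suffix that marks probes shared between transcripts, so their signals may mix several antitrypsin genes.

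Serpina12 encodes vaspin, a secreted protein of fat, skin and liver. It had 9.55, 9.07, 8.36, 7.51 and 6.30, strictly lower with each step, and fell by 3.23 log2 (SE 0.26, adjusted p = 0.00506). Its other, dimmer probe set lay at 4.75 in whole mouse and 4.39 on all 4 other arrays (slope −0.29, adjusted p = 0.282), and the mean of both fell by 1.76. Serpina3n is an acute-phase inhibitor related to antichymotrypsin. It had 10.04, 9.58, 9.02, 8.51 and 7.98, with steps of nearly equal size, and fell by 2.08 log2 (SE 0.09, adjusted p = 0.00357). Serpina10, which inhibits factor Xa with protein Z as cofactor, had 8.59, 8.12, 7.49, 7.15 and 6.58 and fell by 1.996 log2 (SE 0.11, adjusted p = 0.00381). These 3 genes passed without each array in turn. The probe set of Serpina10 carries a suffix for probes shared between transcripts, so its signal may not be of that gene alone.

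The other 3 clade A genes did not pass. Serpina6, the corticosteroid-binding globulin of plasma, had 6.55, 6.03, 5.59, 5.23 and 5.59. It was lowest in the 75% mixture, not in colon, and its slope of −1.09 (SE 0.32) had an adjusted p of 0.0741. Without the colon array that slope was −1.76 and passed (adjusted p = 0.0332). Serpina5, the protein C inhibitor, lay between 3.74 and 4.25, and Serpina3a between 5.88 and 6.17, with adjusted p of 0.513 and 0.797. All signals of Serpina5 lay within the range of the bacterial control probe sets.

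Of 11 measured hepatocyte markers, followed beside clade A, 4 fell, 1 rose and 6 did not pass. On linear intensity 8 fell and 1 rose by limma. Between the undiluted arrays 9 were at least 1 log2 higher in whole mouse and 1 in colon. Their summed intensity was 59993, 54711, 39641, 25293 and 5014 in order of rising colon share. Apolipoprotein H (Apoh) fell by 4.90 log2, fibrinogen alpha (Fga) by 6.03, and albumin (Alb) had 13.70, 13.63, 13.45, 12.94 and 6.48 without passing (adjusted p = 0.136). The marker that rose was Hnf4a, a transcription factor of liver and gut, with 9.08 in whole mouse and 11.66 in colon. It was the brightest of the 11 in undiluted colon and so the largest part of the sum there. The part of liver RNA in the serpin slopes was not tested.

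The single members of clades C and D and both genes of clade F all fell, and all 4 but Serpinf1 are inhibitors of plasma proteases. Antithrombin (Serpinc1), the main inhibitor of thrombin and factor Xa, had 11.43, 11.05, 10.43, 9.34 and 5.99. Like the antitrypsins it held high values until the last step, where it lost 3.35 log2, and it fell by 5.03 (SE 1.05, adjusted p = 0.0344). The undiluted arrays differed 43.3-fold. It did not pass with eBayes trend and robust settings (0.0517), nor with the whole mouse array omitted (0.0785), nor without the 25% (0.0888), 50% (0.0746) or 75% mixture (0.0696). It passed without the colon array with a slope of −2.75 (0.0489), and across its 10 alternatives the adjusted p ran from 0.00485 to 0.0888.

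Heparin cofactor II (Serpind1), a thrombin inhibitor that acts with dermatan sulfate, had 8.65, 8.14, 7.54, 7.22 and 6.80 and fell by 1.85 log2 (SE 0.12, adjusted p = 0.00393). Alpha-2-antiplasmin (Serpinf2), the inhibitor of plasmin, had 10.15, 9.80, 9.14, 8.53 and 7.35 and fell by 2.74 (SE 0.27, adjusted p = 0.0071). Pigment epithelium-derived factor (Serpinf1) has no known protease target and is an anti-angiogenic protein of connective tissue and bone. It had 11.27, 10.79, 9.92, 9.22 and 7.57 and fell by 3.59 (SE 0.38, adjusted p = 0.00778). Its second probe set fell by 1.19, so the size of its fall differed between probe sets. Serpind1, Serpinf1 and Serpinf2 passed without each array in turn.

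C1 inhibitor (Serping1), the only member of clade G, blocks the complement proteases C1r and C1s and plasma kallikrein. It had 9.98, 10.30, 10.34, 10.23 and 10.40. The whole mouse array was the lowest, all 5 signals lay within 0.42 log2, and the slope of 0.30 (SE 0.16, adjusted p = 0.251) did not pass. It did not pass under any of 10 alternatives, with adjusted p from 0.141 to 0.814.

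The proteases these inhibitors meet in plasma fell more often than they rose. Of 16 measured genes of coagulation, fibrinolysis and complement proteases, 7 fell and 1 rose, with a median slope of −0.84 log2. Factor X (F10) fell by 4.54 log2, prothrombin (F2) fell by 4.27, and plasminogen (Plg), at 12.04 in newborn RNA and 5.53 in colon RNA, did not pass (adjusted p = 0.0568). Among 12 cofactors and clearance receptors of serpins 3 fell and 1 rose. Vitronectin (Vtn), which binds and stabilises plasminogen activator inhibitor, fell by 5.26 log2 and thrombomodulin (Thbd) by 0.93, while the proteoglycan decorin (Dcn) lay between 10.39 and 10.95.

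**Figure D2:**
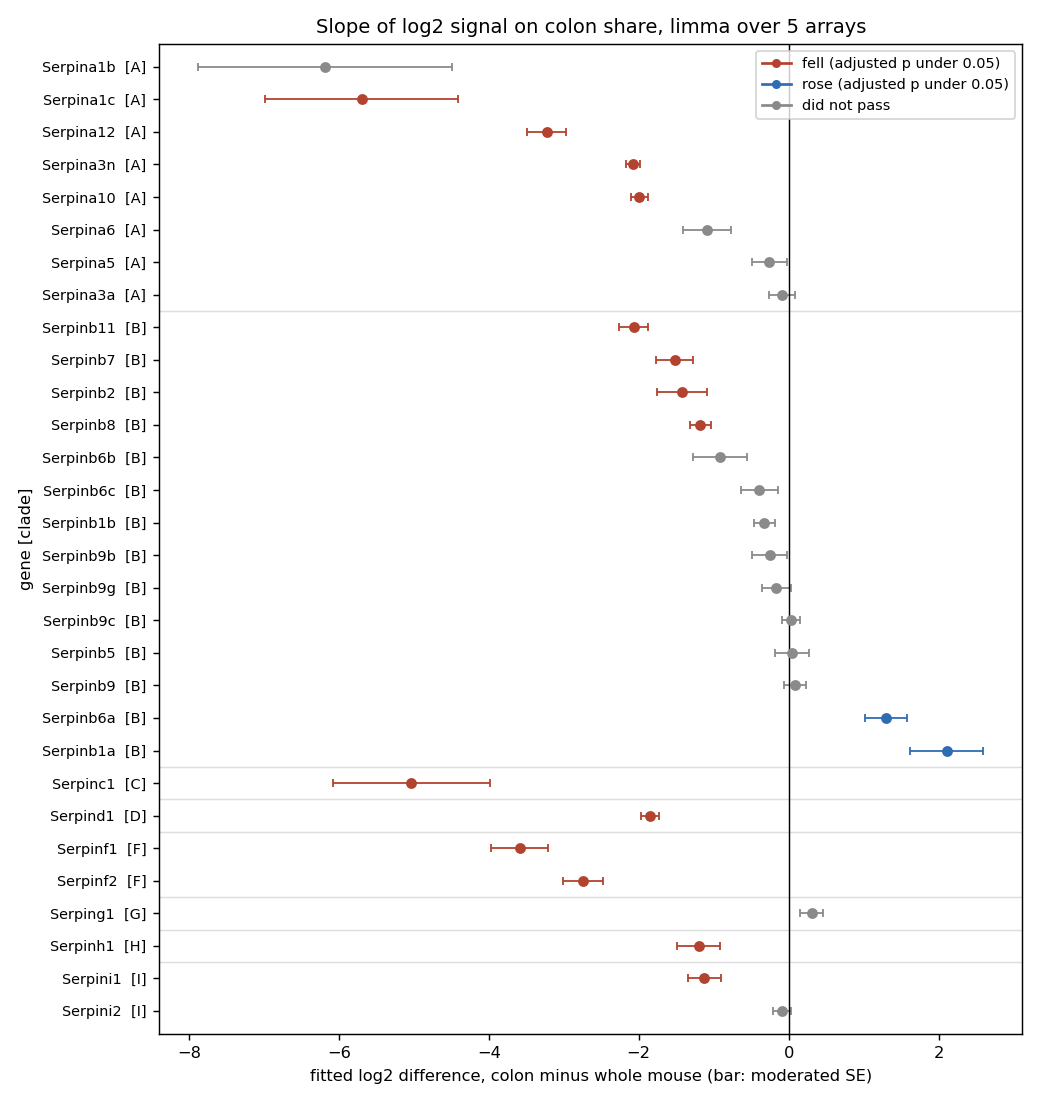
Fitted log2 difference, colon minus whole mouse (horizontal axis), for each serpin gene (vertical axis, clade in brackets), with bars for the moderated SE. Serpina1b has the lowest slope at −6.18 and the widest bar at 1.70, and Serpinb1a the highest at 2.11.

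Clade B, the intracellular serpins, went both ways. Of 14 genes, 4 (28.6%) fell, 2 (14.3%) rose and 8 did not pass, with a median slope of −0.29 log2. Over all genes 14.5% fell and 9.8% rose. Clade B genes of the mouse lie in clusters on chromosome 1 and chromosome 13 in the RefSeq table of GRCm38.p6. All 4 falls were among the 5 measured genes of the chromosome 1 cluster, and both rises among the 9 of the chromosome 13 cluster. By limma the first had no rise and the second no fall. At an unadjusted p under 0.05 the second still had no fall with all arrays, but it had 1 with eBayes trend and robust settings, with averaged probe sets or without whole mouse, and 2 without undiluted colon. This grouping was made after the values were seen, and the difference between the clusters was not tested.

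On chromosome 1, Serpinb11, a serpin of epithelia, had 8.08, 7.27, 6.92, 6.23 and 6.01 and fell by 2.07 log2 (SE 0.19, adjusted p = 0.00621). It passed without each array in turn but not on linear intensity (adjusted p = 0.0531, in a range from 0.00246 to 0.0531). Serpinb7, a protease inhibitor of the upper epidermis, had 6.02, 5.85, 5.10, 4.66 and 4.71 and fell by 1.52 (SE 0.25, adjusted p = 0.0201). Serpinb8, which can inhibit furin, had 5.74, 5.23, 5.09, 4.86 and 4.45 and fell by 1.18 (SE 0.14, adjusted p = 0.00957). Both were higher in whole mouse than in any mixture.

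Serpinb2, plasminogen activator inhibitor 2 of macrophages and keratinocytes, had 4.78, 5.16, 4.38, 3.81 and 3.68. It was highest in the 25% mixture and fell by 1.42 log2 (SE 0.33, adjusted p = 0.0451). Maspin (Serpinb5), a non-inhibitory serpin of epithelial cells, lay between 9.15 and 9.58 with a slope of 0.04 (SE 0.22, adjusted p = 0.93), and neither of its other 2 probe sets passed.

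Most falls on chromosome 1 were in probe sets of low signal. Serpinb2, Serpinb7 and Serpinb8 are among 9 serpins whose mean signal is under the 25th percentile of all probe sets, a range where 4.34% of all genes fell. They did not reach the filter on signal. All signals of Serpinb2 lay within the range of the bacterial control probe sets (2.91 to 5.23 log2). So did those of Serpinb7 from 50% colon on, and those of Serpinb8 on every array but whole mouse. Omitting any array ended the call of Serpinb7, with an adjusted p from 0.0503 (25% mixture omitted) to 0.105 (whole mouse omitted). Serpinb2 passed in 1, without the 25% mixture (0.0412), and had 0.209 without the colon array. Serpinb8 was lost without the whole mouse array (0.055) or the colon array (0.077). On linear intensity the adjusted p was 0.0542 for Serpinb7, 0.163 for Serpinb2 and 0.0434 for Serpinb8.

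Of 10 epidermis markers, followed beside this cluster, 5 fell and 5 did not pass. Their summed intensity was 38121, 33558, 25302, 14130 and 569. Keratin 14 (Krt14) fell by 5.67 log2 and the lectin Lgals7 by 5.60, while keratin 10 (Krt10), at 13.63 in newborn RNA and 7.35 in colon RNA, did not pass (adjusted p = 0.116). Of 10 proteases of stratified epithelium, 3 fell and 2 rose. The kallikrein-related Klk8 fell by 3.05 log2, the matriptase gene St14 rose by 2.35, and cathepsin L (Ctsl) had a slope of −0.43 (adjusted p = 0.171). The part of skin RNA in the slopes of these serpins was not tested.

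On chromosome 13, Serpinb1a was the steepest rise of the family. It encodes an inhibitor of neutrophil elastase, cathepsin G and proteinase 3 found in leukocytes and epithelia. Its signals of 8.65, 10.16, 10.62, 10.63 and 11.04 made most of their gain, 1.52 log2, in the first step from whole mouse to 25% colon. It rose by 2.11 log2 (SE 0.49, adjusted p = 0.044), and its second probe set, at 5.13 and 7.71 in the undiluted RNAs, rose by 2.36 (adjusted p = 0.0359). That second probe set carries a suffix for probes shared between transcripts, so its signal may include related genes. The undiluted arrays differed 5.27-fold.

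Serpinb6a, an inhibitor of cathepsin G in many cell types, had 11.33, 12.25, 12.39, 12.62 and 12.76. It also gained most, 0.92 log2, in the first step, and rose by 1.29 log2 (SE 0.28, adjusted p = 0.0378). Without the whole mouse array the slopes were 1.06 for Serpinb1a (adjusted p = 0.0691) and 0.70 for Serpinb6a (0.0498), so the size of both rises rested partly on that array. Omitting any array ended the call of Serpinb1a: the adjusted p was 0.0547 when the 25% mixture was left out, 0.0838 for the 50%, 0.122 for the 75% and 0.14 for undiluted colon. Serpinb6a was lost without the 50% (0.0896) or 75% mixture (0.119) or the colon array (0.114).

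The other 7 genes of this cluster did not pass. Serpinb9, which protects cells from granzyme B, lay between 6.59 and 6.85 (slope 0.08, SE 0.15, adjusted p = 0.772). Its relatives Serpinb9b, Serpinb9c and Serpinb9g had slopes of −0.25, 0.03 and −0.16. Serpinb1b, a close relative of Serpinb1a, lay between 4.04 and 4.44 (slope −0.32, adjusted p = 0.199). All signals of Serpinb1b, Serpinb9c and Serpinb9g lay within the range of the bacterial control probe sets. Serpinb6c had a slope of −0.39 (adjusted p = 0.344), and its probe set carries a suffix for probes shared between transcripts. Serpinb6b had 6.96, 7.38, 7.08, 6.27 and 6.38, with a slope of −0.91 (SE 0.36) and an adjusted p of 0.151.

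**Figure D3:**
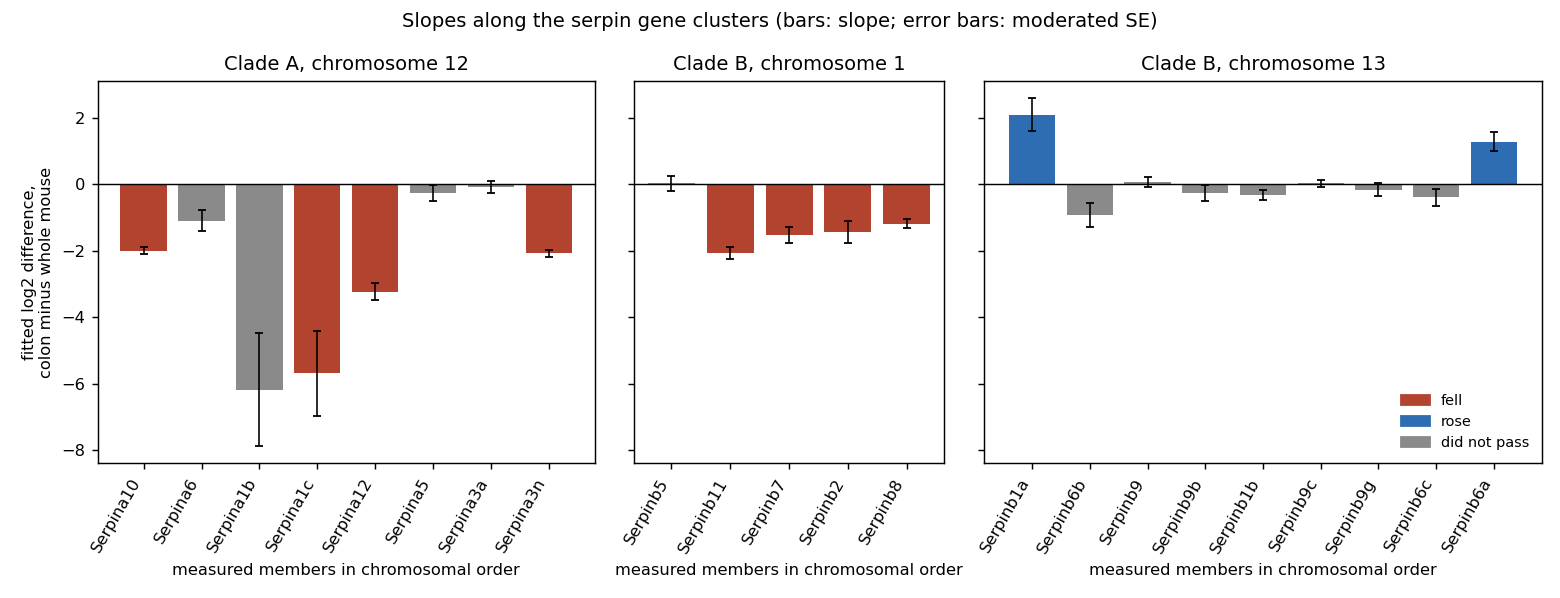
Slopes (bars, log2, colon minus whole mouse) with moderated SE for the clade A and clade B genes in their order along each chromosome. On chromosome 1 every gene but Serpinb5 fell, and on chromosome 13 the rises of Serpinb1a and Serpinb6a stand at the ends of the measured row.

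Leukocyte genes were followed beside clade B, since some granule proteases are its targets. The list held 12 measured granule genes of neutrophils, mast cells and lymphocytes, all proteases but perforin (Prf1). Of these 6 fell and none rose by limma, while 1 had a positive slope at an unadjusted p under 0.05. The mast cell chymase Cma1 fell by 4.35 log2 and carboxypeptidase Cpa3 by 3.95. Neutrophil elastase (Elane), a target of Serpinb1a, went from 7.38 in the newborn RNA to 6.96 in colon RNA (adjusted p = 0.621). Of 10 leukocyte markers 1 rose and 1 fell, their summed intensity lying between 3237 and 4163. The pan-leukocyte gene Ptprc rose by 0.91 log2, and the macrophage receptor Csf1r fell by 0.97. Lysozyme 2 (Lyz2) lay between 10.09 and 10.32 (adjusted p = 0.332). Csf1r and Lyz2 were the brightest of the 10 on every array and made up most of the summed intensity. None of the 10 was 1 log2 apart between the undiluted arrays. The part of leukocyte RNA or of colon epithelium RNA in the rises of Serpinb1a and Serpinb6a was not tested.

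Clade H is Serpinh1, a chaperone of the endoplasmic reticulum that binds procollagen. It had 10.45, 10.74, 10.11, 9.96 and 9.34, highest in the 25% mixture, and fell by 1.20 log2 (SE 0.29, adjusted p = 0.0478). Its second probe set, with a suffix for probes shared between transcripts, fell by 0.66 (adjusted p = 0.0445). It passed without the whole mouse array (0.043) but not without the 25% (0.065), 50% (0.111) or 75% mixture (0.114) or the colon array (0.283), nor on linear intensity (0.12). Of 17 collagen chains and collagen-modifying enzymes, 11 fell and none rose by limma. At an unadjusted p under 0.05 the slope was negative in 13 and positive in none, against 21.5% and 19.8% of all genes. Collagen II (Col2a1) fell by 4.34 log2 and collagen I (Col1a1) fell by 3.40, while the prolyl hydroxylase subunit P4hb had a slope of −0.19 (adjusted p = 0.395).

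In clade I, neuroserpin (Serpini1), which inhibits tissue plasminogen activator in the nervous system, had 6.90, 7.11, 6.51, 6.25 and 5.93. It fell by 1.13 log2 (SE 0.22, adjusted p = 0.0297). Its second probe set went the other way, with 5.65, 5.77, 5.83, 5.86 and 6.12 (slope 0.41, adjusted p = 0.0626), and the mean of both had a slope of −0.36 and did not pass (0.121). The direction of Serpini1 thus depended on the probe set. It was also lost on linear intensity (0.0875) and without the 50% (0.0795) or 75% mixture (0.101) or the colon array (0.182). Of 10 neuronal markers 5 fell, of which Tubb3 fell by 3.50 log2 and Nefm fell by 2.82, while Elavl3 had a slope of −1.09 (adjusted p = 0.0632). The list's summed intensity was 3947 in whole mouse and 820 in colon, and its part in the slope of Serpini1 was not tested. Serpini2, a serpin of the pancreas, lay between 4.73 and 4.92 (slope −0.09, adjusted p = 0.686). Its signals lay within the range of the bacterial control probe sets, and its suffix marks probes shared between transcripts. They do not show whether its RNA changed. Of 10 digestive serine proteases 6 fell and 1 rose. Among them chymotrypsinogen (Ctrb1) fell by 4.46 log2 and the trypsinogen Prss3 fell by 4.995, while the tissue kallikrein Klk1 went from 9.06 in newborn RNA to 13.25 in colon RNA without passing (adjusted p = 0.121).

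The mixtures allowed a second description that uses no straight line. If intensities add in proportion to RNA, each mixture should lie at the weighted mean of the undiluted intensities. Antithrombin followed this curve closely, its mixtures lying 0.03, −0.03 and −0.18 log2 from it at 25%, 50% and 75% colon. Serpina1b lay 0.03, −0.02 and 0.16 from it. The abrupt last step of both genes on the log2 scale is thus also a feature of that curve.

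Several other serpins lay below the curve in the mixtures. At 50% colon Serpinb11 lay −0.47 log2 from it, Serpind1 −0.46, Serpinf1 −0.46 and Serpina10 −0.42. There Serpinb7 lay −0.41 from it, and Serpina12 and Serpina3n −0.34 each. All of these were at least 1 log2 apart between the undiluted arrays. Serpinh1 lay above it in every mixture, by 0.51, 0.11 and 0.25, and Serpinb2 lay above it at 25% and 50% colon, by 0.59 and 0.05. Over the 14 serpins at least 1 log2 higher in whole mouse, the median deviation was −0.11, −0.32 and −0.23 in the 3 mixtures. Over all 1284 such genes it was −0.15, −0.22 and −0.14, with standard deviations of 0.26, 0.25 and 0.26. The rising genes lay above the curve at 25% colon, Serpinb1a by 0.47 and Serpinb6a by 0.41, where all 1148 genes at least 1 log2 higher in colon had a median of 0.34. The difference between serpins and other genes in these deviations was not tested.

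**Figure D4:**
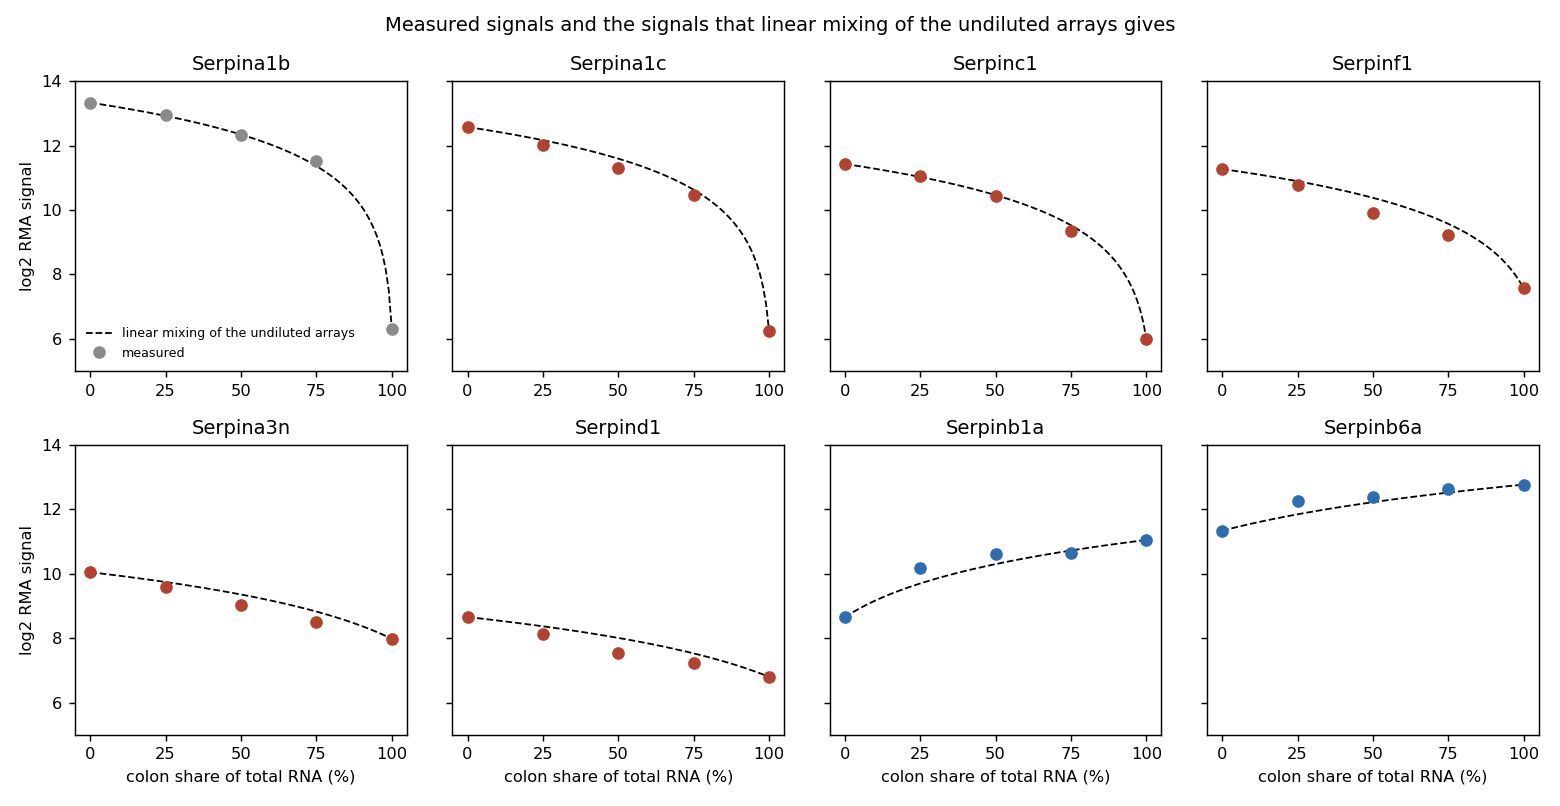
Measured log2 signals (points) and the curve that linear mixing of the undiluted arrays gives (dashed) against the colon share in percent for 8 serpins. Serpina1b and Serpinc1 lie close to the curve, Serpinf1, Serpina3n and Serpind1 below it in the mixtures, and Serpinb1a and Serpinb6a above it at 25% colon.

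Protease inhibitors of other families also split. Of 28 measured, 12 fell and 4 rose, with a median slope of −0.62 log2. Kininogen (Kng1), a cysteine protease inhibitor of plasma, fell by 7.10 log2 and Ambp, the precursor of bikunin, fell by 4.83. The epithelial Kunitz inhibitor Spint2 went from 10.02 in newborn RNA to 13.12 in colon RNA and did not pass (adjusted p = 0.0519). No difference between this list and the serpins was tested.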

How the data were processed

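Values of 22690 probe sets were analysed as deposited, on the log2 scale of the authors' RMA processing (per the submitters' processing notes). The RMA version and settings are not given in the sources used here. Leaving out 64 control probe sets, 22626 were tested, with no filter on signal. The GEO platform annotation paired 20380 of them with 1 gene, and 20351 had a gene identifier in the RefSeq table of GRCm38.p6. The 3 probe sets annotated to several serpin genes were not used.

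Log2 signal was regressed on colon share with limma 3.58.1 in R 4.3.3 (eBayes, 3 residual degrees of freedom, 2-sided p, Benjamini-Hochberg over all probe sets, threshold 0.05). The fit was tested on simulated data with straight lines on the log2 scale and independent noise. That setting holds no curve of mixing, so it does not show how the fit handles such curves. Members and lists were chosen with earlier results of these data known. Members past the threshold, at least 1 log2 apart between undiluted arrays or brightest in a clade are given on all 5 arrays. From each list the text names the 2 steepest genes that passed and the brightest that did not, and also Hnf4a, the hepatocyte marker that rose. Other rises are counted but not all named. Promoters came from RefSeq. Alternatives were median centring, a signal filter, linear intensity, eBayes with trend and robust settings, averaged probe sets and leaving out each array.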

Additional observations from a re-analysis of the deposited data

How the results depend on the processing

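No paired analysis was possible because each mix had 1 array and the labels give no replicate numbers. All 16 serpins that passed kept their direction whichever of the 5 arrays was omitted, and 7 of them (Serpina10, Serpina12, Serpina3n, Serpinb11, Serpind1, Serpinf1 and Serpinf2) passed each time. Leaving out an array gave 8 to 11 falls and 0 to 1 rises among the serpins, 3 to 6 falls in clade A, and 1 to 3 falls and 0 to 1 rises in clade B. Over all genes it gave 632 to 1223 falls and 101 to 802 rises, against 1797 and 1215 with all arrays. The falls of clade B numbered 1 with the filter on signal, which 3 of the 4 genes did not reach, and 1 on linear intensity, where the cause was not tested. With centred arrays 1933 of all genes rose. Slopes of 8 genes that did not pass changed sign in fits without 1 array, within −0.35 to 0.22 for Serpina3a, −0.61 to 0.19 for Serpina5, −0.19 to 0.19 for Serpinb5, −0.0035 to 0.24 for Serpinb9, −0.55 to 0.17 for Serpinb9b, −0.065 to 0.18 for Serpinb9c and −0.40 to 0.22 for Serpinb9g, as did Serpini2 within −0.24 to 0.084.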
